A study of Mus musculus with 9 samples.

Results

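Gene expression was compared between 3 libraries from eyes that had received ABTAA and 3 from eyes that had received Fc, chosen by their titles out of 9 libraries in the series. ABTAA is an angiopoietin 2-binding antibody that switches on the receptor Tie2, and Fc, the constant part of an antibody, was its control. The other 3 libraries came from eyes given VEGF Trap, a decoy that captures VEGF. They entered the estimate of the spread and 1 comparison at the end. All were male mice of 8 weeks whose eyes carried 4 laser burns through the Bruch membrane, so that choroidal neovascularization (CNV) was induced in every group, and unburned eyes were not analysed here. Each reagent was injected into the vitreous at 5 µg. The lesion, with a rim of retinal pigment epithelium and choroid, was cut out by laser capture, and libraries that read the 3′ ends of transcripts were made from its RNA. Strain and the interval from burn to collection were not stated in the sources used here. Because no animal is named behind a library, a p-value reflects the spread from library to library, part of which may be technical. Inside the Fc tables the headings read as controls of a knockout, whereas the groups here follow the titles.

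Tie2, encoded by Tek, is a receptor tyrosine kinase of endothelial cells. Angiopoietin 1 from cells around the vessel activates it, while angiopoietin 2 from activated endothelium can compete for the same site. Active Tie2 signals through PI3 kinase and AKT, which keeps the transcription factor FOXO1 out of the nucleus, and it is known for tightening junctions and quieting vessels. CNV, the growth of choroidal vessels under the retina, is the lesion of neovascular macular degeneration. The transcripts of the axis itself did not pass the test. Tek stood at 31.4, 20.9 and 21.5 CPM in Fc 1, 2 and 3 and 35.3, 34.2 and 23.0 CPM in ABTAA 1, 2 and 3. The groups overlapped (log2 0.34 ± 0.24 (SE), adjusted p = 0.511 by edgeR). Angpt1 stood at 176, 169 and 186 CPM in Fc and 214, 209.6 and 210.3 CPM in ABTAA. All 3 ABTAA libraries lay above Fc but short of the threshold (log2 0.26 ± 0.10 (SE), adjusted p = 0.203 by edgeR). Angpt2 was low in every library, at 8.69, 6.28 and 9.70 CPM in Fc and 10.2, 10.5 and 9.54 CPM in ABTAA. Of the 25 measured genes in a list of angiopoietin, Tie and FoxO signalling, 0 passed in either direction, where 1.40% of all tested genes passed. The list's median log2 fold change was 0.19, against -0.00 over all tested genes.

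The deposited tables held whole-number counts for 24421 gene symbols. Totals were 10669772, 11563695 and 12326569 counts in Fc 1, 2 and 3 and 9883151, 10060014 and 6335805 in ABTAA 1, 2 and 3. Every ABTAA library was thus shallower than every Fc library. Genes with any count numbered 16856 to 16996 in Fc and 16047 to 16569 in ABTAA. The part of depth in the differences was not tested. Levels are given in CPM, counts scaled to the depth of each library. Depending on the library, 3 counts, the floor for a gene listed at 0, equal 0.243 to 0.473 CPM, which covers counting error only. Of 14054 genes that passed a filter on low counts, 197 (1.40%) changed at an adjusted p under 0.05 in edgeR's quasi-likelihood test. In ABTAA, 119 genes (0.847%) were higher and 78 (0.555%) were lower. The median change was 1.67-fold among the higher genes and 1.56-fold among the lower ones, so most differences were modest: 24 genes rose and 8 fell by more than 1 on the log2 scale. For all 197 the 3 ABTAA libraries lay apart from the 3 Fc libraries, as they did for 11.7% of all tested genes in the higher and 11.3% in the lower direction. Scaling by library totals alone shifted the median of all genes to -0.05 and turned the split to 66 higher and 106 lower. Only 18 of the 197 belonged to the endothelial, skeletal or striated muscle and macrophage lists. The 179 others, 103 higher and 76 lower, are described next by the role of their products, in groups formed after the values were seen. Their counts cover only the called genes described and say nothing of other genes with such roles. A value in parentheses after a gene, or after "rose by" or "fell by", is its log2 fold change of ABTAA minus Fc, and a list's median is on the same scale.

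**Figure D1:**
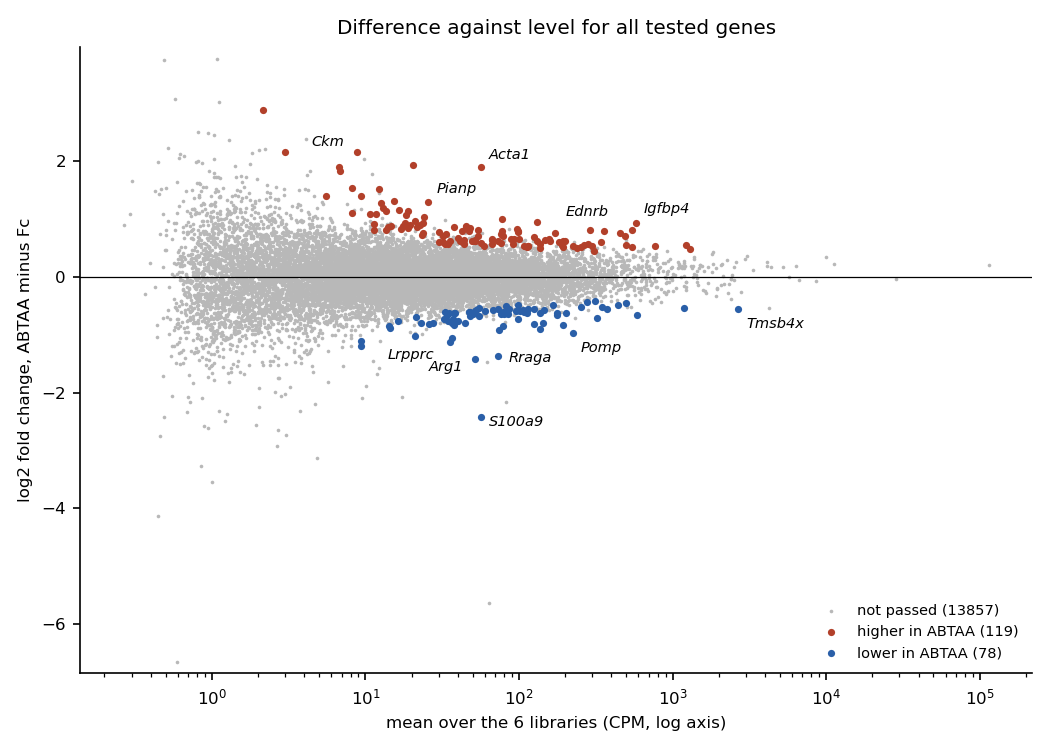
Log2 fold change of ABTAA minus Fc (vertical axis) against the mean level over the 6 libraries in CPM (log horizontal axis) for 14054 genes. Red and blue points mark the 119 higher and 78 lower genes past the edgeR test, which spread over levels from under 10 CPM to those of Tmsb4x, and grey points did not pass.

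Several measurements, the depth given above among them, moved with the treatment and stand beside every count given here. Higher genes had a median transcript GC content of 56.1% and lower genes of 46.6%, against 49.7% over tested genes. It was taken over the whole of each gene's longest annotated transcript, not over the 3′ end that the libraries read. Across 5 equal classes of genes ranked by GC content, the median log2 fold change ran from -0.11 in the lowest through -0.08, -0.02 and 0.06 to 0.16 in the highest. The highest class held 66 of the higher and 4 of the lower calls. Every ABTAA library stood 0.15 to 0.18 above the Fc mean in the highest class, where the Fc libraries lay between -0.01 and 0.03. With a GC trend removed from each library, an alternative chosen after seeing the data, 78 genes passed, 42 higher and 36 lower, and 69 of the 197 were among them. All 197 kept their direction there, with a median size of 0.63 and a median SE of 0.14. The summed level of 17 measured skeletal muscle genes was 131 to 204 CPM in Fc and 274 to 537 CPM in ABTAA. With that sum as a covariate in edgeR, 0 genes passed and 1045 had an unadjusted p under 0.05. The median size of the 197 differences was 0.64 with a median SE of 0.25, against 0.68 and 0.14 with neither adjustment.

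**Figure D2:**
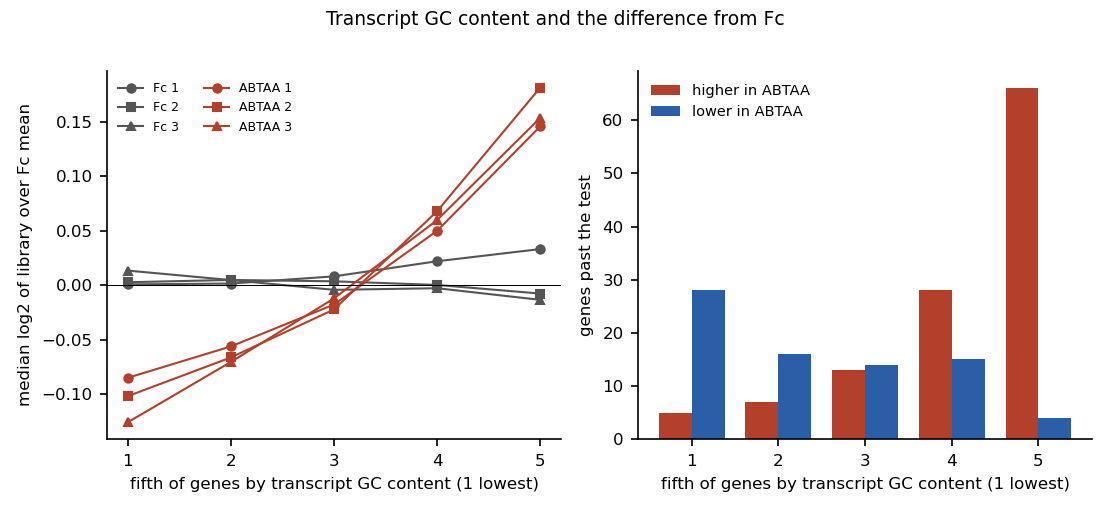
Left, the median log2 ratio of each library to the Fc mean (vertical axis) in 5 classes of genes by transcript GC content (horizontal axis, 1 lowest), each line being 1 library. The 3 ABTAA lines run from between -0.13 and -0.09 up to between 0.15 and 0.18, and the Fc lines stay near 0. Right, genes past the test in each class, with 66 higher and 4 lower in the highest and 5 higher and 28 lower in the lowest.

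Marker lists placed the tissue. Retinal pigment epithelium genes summed to 3967 to 5566 CPM in Fc and 4842 to 5837 CPM in ABTAA, with 0 of 17 past the test, and fibroblast genes to 7515 to 8935 CPM in Fc and 6985 to 9039 CPM in ABTAA, with 0 of 15. Endothelial genes summed to 2145 to 2724 CPM in Fc and 3209.8 to 3391 CPM in ABTAA, 5 of 23 being higher, and macrophage and microglia genes to 4560.1 to 4643 CPM in Fc and 3486 to 4403 CPM in ABTAA, 2 of 22 being lower. Schwann cell genes, which mark nerve in the choroid, summed to 725 to 965 CPM in Fc and 1049.5 to 1087 CPM in ABTAA, with 0 of 14 past the test, and pigment genes to 2526 to 2925 CPM in Fc and 3223 to 3286 CPM in ABTAA, with 1 of 13 higher. Lens and photoreceptor genes had 0 of 7 and 0 of 16, where 1.40% of all tested genes passed. Lymphocyte and neutrophil genes summed to 93.0 to 519 CPM in Fc and 49.3 to 69.3 CPM in ABTAA, with 1 of 7 lower, and Fc 1 stood apart in them. In tissue RNA, fewer cells of a type and less RNA per cell cannot be told apart, which holds for each gene below.

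Calls were sensitive to single libraries. Leaving out Fc 1, 2 or 3 left 47, 13 or 35 calls, and leaving out ABTAA 1, 2 or 3 left 58, 0 or 145. Without VEGF Trap 1, 2 or 3, which belong to neither group, 373, 101 or 169 genes passed. The direction of all 197 was kept in each omission, which was nearly fixed beforehand, since their groups did not overlap. The median size of the difference stayed between 0.66 and 0.73, while the median SE was 0.13 to 0.16, against 0.14 with all libraries. Without ABTAA 2, 1743 genes had an unadjusted p under 0.05. Of the 197, 29 passed in at least 6 of the 9 omissions and 8 in 8 of them: Rraga, Pomp, Rps23, Gm5148, Ednrb, Igfbp4, Pmel and Pianp.

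Among genes of nutrient sensing and protein breakdown described here, 3 were lower and 2 higher. Rraga encodes RagA, the GTPase that brings the growth kinase complex mTORC1 to the lysosome when amino acids are plentiful. Its level was 107, 119 and 88.4 CPM in Fc 1, 2 and 3 and 34.4, 30.2 and 58.0 CPM in ABTAA 1, 2 and 3. Even the highest ABTAA library, ABTAA 3, lay below the lowest Fc library, and the gene fell 2.58-fold (log2 -1.37 ± 0.20 (SE), adjusted p = 0.00872 by edgeR). Pomp, the chaperone that completes the assembly of the proteasome core, stood at 308, 295 and 282 CPM in Fc and 131, 142 and 181 CPM in ABTAA. The gap was again wide, and the gene fell 1.96-fold (log2 -0.97 ± 0.13 (SE), adjusted p = 0.00872 by edgeR). In GRCm38, the build that mm10 names, Rraga lies on chromosome 4 from 86575668 to 86577285 and Pomp on chromosome 5 from 147860461 to 147876456. The last 200 bases of Pomp are near-identical to those of Gm8702, so reads of the pair could be split between them.

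Psmb7, a catalytic subunit of the proteasome core, fell from 46.1 ± 2.13 to 26.7 ± 6.39 CPM as the mean and SD of 3 libraries (log2 -0.80 ± 0.18 (SE), adjusted p = 0.0442 by edgeR). Akt1s1, whose product PRAS40 restrains mTORC1, rose 1.44-fold. Tfeb, the transcription factor of lysosomal genes that mTORC1 holds in the cytoplasm, read 63.6, 74.3 and 67.1 CPM in Fc and 95.4, 132 and 96.2 CPM in ABTAA. ABTAA 2 was the highest library, and the gene rose 1.58-fold (log2 0.66 ± 0.15 (SE), adjusted p = 0.0469 by edgeR). In the Rag GTPase, Ragulator and mTORC1 list Rraga was the 1 lower of 24, with 0 higher (median -0.03). Among 37 proteasome subunits Psmb7 was the 1 lower, with 0 higher (median -0.03), and of 8 assembly factors Pomp was the 1 lower, with 0 higher (median -0.02). Over all tested genes 1.40% were called. The Ragulator gene Lamtor2, at 0.42 ± 0.14 (SE), and the proteasome gene Psmd4, at 0.22 ± 0.12, are abundant members that did not pass. Of the 38 lysosome and autophagy genes Tfeb was the 1 called, and the protease Ctsd stood at -0.06 ± 0.12. Of these 5 called genes, Rraga and Pomp passed without Fc 1, 2 or 3 or without ABTAA 1 and with the GC trend removed. However, 0 passed without ABTAA 2, 3 without ABTAA 3, and 5, 2 and 4 without VEGF Trap 1, 2 and 3. Exons of Psmb7 and Akt1s1 overlap a gene on the other strand, and the strand setting of the counting was not stated in the sources used here.

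The stretches before the start sites of Rraga and Igfbp4, a lower and a higher gene called in 8 of 9 omissions, are shown to let their base composition be read. Each runs 5′ to 3′ over the 250 bases before the RefSeq start on GRCm38.p6, and capitals mark matches on either strand to any of 7 short motifs: the TATA box TATAAA, the NF-Y box CCAAT, the GC box GGGCGG, the E-box CACGTG, the forkhead motif GTAAACA, the AP-1 motif TGACTCA and the KLF motif CACCC. GENCODE starts Rraga slightly earlier, so that the last 5 bases of its stretch lie inside the GENCODE gene, and for Igfbp4 0 bases do.
Rraga (chr4:86575423-86575672, plus strand): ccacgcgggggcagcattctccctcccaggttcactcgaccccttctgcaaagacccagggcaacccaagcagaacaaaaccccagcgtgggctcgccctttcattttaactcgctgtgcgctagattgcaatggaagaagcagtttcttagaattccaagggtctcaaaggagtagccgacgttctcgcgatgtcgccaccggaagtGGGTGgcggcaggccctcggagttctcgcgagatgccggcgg
Igfbp4 (chr11:99040994-99041243, plus strand): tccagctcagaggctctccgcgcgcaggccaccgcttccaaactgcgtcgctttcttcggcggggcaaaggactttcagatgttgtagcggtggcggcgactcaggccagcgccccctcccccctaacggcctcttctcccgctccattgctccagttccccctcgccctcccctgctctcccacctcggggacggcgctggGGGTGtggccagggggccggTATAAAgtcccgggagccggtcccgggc
The stretch of Rraga was 59.2% and that of Igfbp4 69.2% G or C. Igfbp4 holds a TATA box match, and CACCC occurs in both. Over windows of 300 bases that run 50 past the RefSeq start, which can differ from the GENCODE gene start, median GC content was 59.7% for 92 higher genes with a window, 61.3% for 61 lower genes and 60.7% for 10570 tested genes. The forkhead motif, to which FoxO factors bind, occurred in 2.17% of the higher, 0% of the lower and 2.54% of all tested windows, and the GC box in 60.9%, 72.1% and 63.0%. A match is a string of letters, not a shown binding site. The order of GC content seen in transcripts, higher genes above lower ones, was not seen in these windows.

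**Figure D3:**
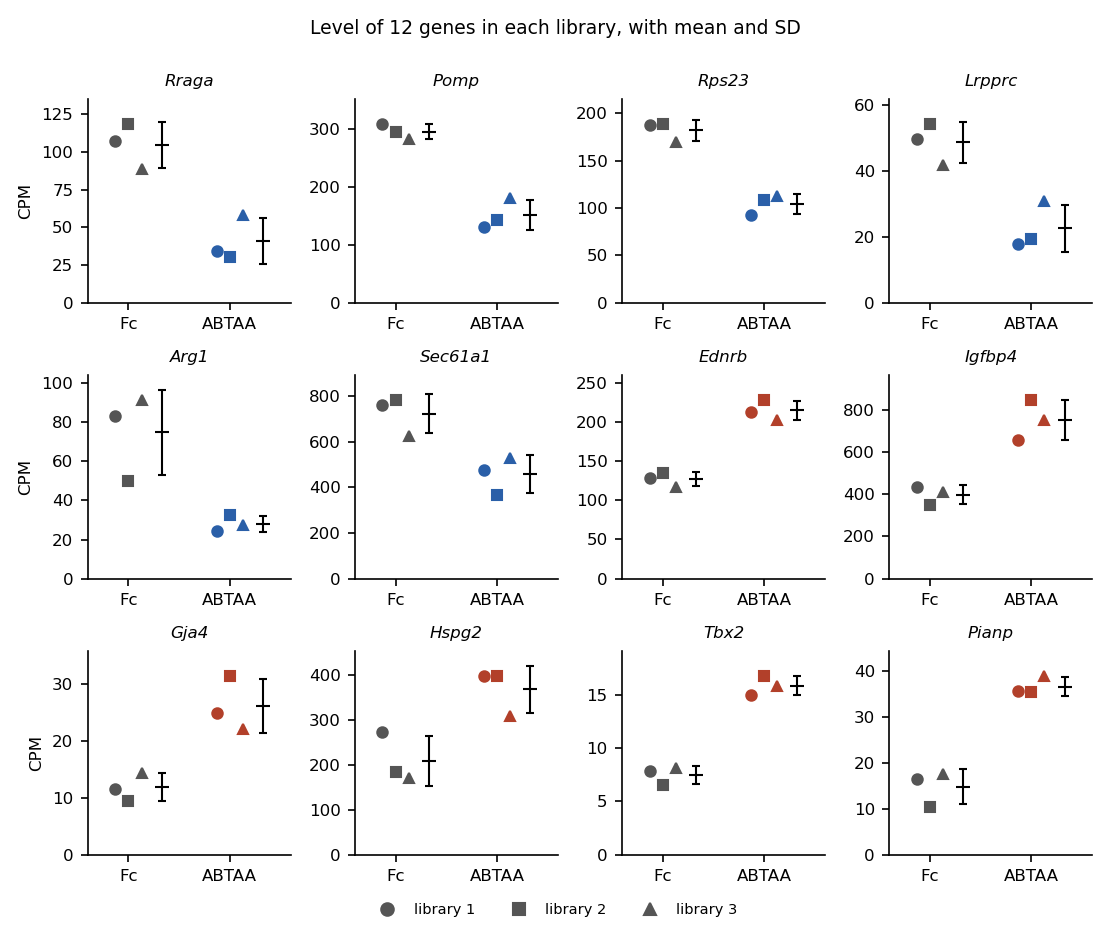
CPM (vertical axes, from 0) of 12 genes in each Fc and ABTAA library, with symbols for libraries 1, 2 and 3 and a dash with bars for the mean and SD of 3. The top row and the first 2 panels of the second row, from Rraga to Sec61a1, lie lower in ABTAA, the others from Ednrb to Pianp lie higher, and in no panel do the groups overlap.

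Of 11 called genes of protein synthesis described here, 10 were lower and 1 was higher. Rps23, a protein of the small ribosomal subunit, stood at 187, 189 and 169.6 CPM in Fc 1, 2 and 3 and 92.3, 108 and 112 CPM in ABTAA 1, 2 and 3. The ABTAA libraries lay close together and well under Fc, a 1.75-fold fall (log2 -0.80 ± 0.11 (SE), adjusted p = 0.00872 by edgeR). Rps23 lies on chromosome 13 from 90922958 to 90924950 and has 11 near-identical copies in the genome, mostly pseudogenes, so its level is uncertain. The called transcripts Gm5148 (-0.89) and C330021F23Rik (-0.72), named after their values were seen, overlap Rps23 pseudogenes on the other strand. Rps19 (-0.56), Rpl21 (-0.63) and Rpl36al (-0.65) also fell and also have near-identical copies. Among 78 ribosomal protein genes 3 were lower, 0 higher and 75 did not pass, where 1.40% of all tested genes were called. In all, 58 of the 78 lay below 0, with a median of -0.10. Eif2s3x, the X-linked gamma subunit of the factor that brings the initiator tRNA, stood at 27.9, 29.5 and 30.6 CPM in Fc and 15.2, 15.3 and 20.3 CPM in ABTAA. The groups did not overlap, and it fell 1.75-fold (log2 -0.80 ± 0.16 (SE), adjusted p = 0.0349 by edgeR). It was the 1 gene called among 40 initiation and elongation factors, whose median was -0.10.

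The remaining genes of this kind act on RNA partners of the ribosome. Nop58, a core protein of the particles that methylate ribosomal RNA, fell from 48.4 ± 2.44 to 27.0 ± 3.75 CPM (log2 -0.84 ± 0.15 (SE), adjusted p = 0.0235 by edgeR). Aimp1, a scaffold of aminoacyl-tRNA synthetases, fell from 50.0 ± 4.05 to 29.7 ± 5.27 CPM (log2 -0.76 ± 0.15 (SE), adjusted p = 0.0318 by edgeR). The La protein gene Ssb (-0.52), the La-related Larp7, which binds the 7SK RNA (-0.72), and Elp3, an enzyme of tRNA wobble modification (-0.60), fell as well. Ctu2, which adds sulfur to the same wobble base, rose by 0.62. Its exons overlap those of Piezo1, also higher, on the other strand. Snhg1, a host transcript of small nucleolar RNAs, fell 1.84-fold (log2 -0.88 ± 0.20 (SE), adjusted p = 0.0451 by edgeR), 1 of 23 in its list, beside 1.40% over all tested genes. Its end cannot be separated from that of Snord22. Exons of Aimp1 and Ssb overlap a gene on the other strand. Of the 11 genes, which leave out Snhg1, Rps23 alone passed without Fc 1, 2 or 3, while 3, 0 and 5 passed without ABTAA 1, 2 and 3. Leaving out VEGF Trap 1, 2 or 3 left 11, 6 or 9, and removing the GC trend left 3 (Nop58, Rpl36al and Rps23).

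In the lists of mitochondrial genes, the 5 that passed were lower. Lrpprc, which binds and stabilises mRNAs made in mitochondria, stood at 49.9, 54.3 and 42.0 CPM in Fc 1, 2 and 3 and 17.7, 19.2 and 30.8 CPM in ABTAA 1, 2 and 3. The ABTAA libraries all lay below Fc, ABTAA 3 the nearest to it, a 2.18-fold fall (log2 -1.13 ± 0.19 (SE), adjusted p = 0.0195 by edgeR). Lrpprc lies on chromosome 17 from 84705247 to 84790789. The complex I gene Ndufb3 fell from 93.5 ± 6.43 to 59.6 ± 9.65 CPM (log2 -0.65 ± 0.14 (SE), adjusted p = 0.0382 by edgeR). Ndufa10, of the same complex, fell from 97.4 ± 19.5 to 62.7 ± 4.18 CPM (log2 -0.64 ± 0.15 (SE), adjusted p = 0.0473 by edgeR). So did Cox7c (-0.66), a subunit of cytochrome c oxidase, together with its near-identical copy Gm10012 (-0.80) and a copy of the latter, Gm12338 (-0.68), both named after their values were seen, between which reads could be split. Tomm70a (-0.60), a receptor for imported proteins whose exons overlap Nit2 on the other strand, fell as well. In the lists, 2 of 37 complex I genes were lower (median -0.10), 1 of 39 genes of complexes II to V (median -0.10), with 0 higher in each. Lower were also 1 of 84 genes of the mitochondrial ribosome and translation (median -0.08) and 1 of 24 import genes (median -0.05), again with 0 higher. These counts stand beside 1.40% called over all tested genes. Enzymes of the TCA cycle (22) and of fatty acid oxidation and peroxisomes (26) had 0 calls. Of the 5 genes, 1, 0 and 2 passed without Fc 1, 2 and 3, and 0, 0 and 2 did without ABTAA 1, 2 and 3. Omission of VEGF Trap 1, 2 or 3 left 5, 1 or 4, and removal of the GC trend left Lrpprc.

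Of the called genes described here, 5 were grouped as chaperones or at the entry into the secretory pathway, and each was lower. Outside this group, the chaperone Pomp was lower, and the small heat shock protein Hspb7, counted with the contractile genes, was higher. Sec61a1, the pore through which new proteins enter the endoplasmic reticulum, stood at 762, 782 and 625 CPM in Fc 1, 2 and 3 and 477, 366 and 529 CPM in ABTAA 1, 2 and 3. The highest ABTAA library lay under the lowest Fc library (log2 -0.66 ± 0.14 (SE), adjusted p = 0.0344 by edgeR). Ostc, of the complex that attaches sugars beside that pore, fell from 175 ± 11.2 to 118 ± 17.6 CPM (log2 -0.57 ± 0.12 (SE), adjusted p = 0.0397 by edgeR). Among chaperones fell Hspd1, the mitochondrial chaperonin (-0.55), Hspa4, a nucleotide exchange factor of the Hsp70 family (-0.55), and Hspb8, a small heat shock protein (-0.58). These were 3 of 32 heat shock and chaperone genes, with 0 higher and a median of -0.03, beside 1.40% called over all tested genes. The abundant chaperone of the endoplasmic reticulum Hspa5 read 2016, 2204 and 2207 CPM in Fc and 1729, 1626 and 1751 CPM in ABTAA. Its groups lay apart but short of the threshold (log2 -0.33 ± 0.09 (SE), adjusted p = 0.0736 by edgeR). Likewise 0 of 26 unfolded protein and integrated stress response genes passed (median 0.05), Atf4 standing at -0.08 ± 0.11. Sec61a1 and Hspd1 overlap exons on the other strand. Of the 5 genes, 0, 0 and 1 passed without Fc 1, 2 and 3, and 0, 0 and 4 did without ABTAA 1, 2 and 3. Leaving out VEGF Trap 1, 2 or 3 left 5, 2 or 4, and removing the GC trend left 2 (Hspb8 and Sec61a1).

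Of 7 called inflammatory genes outside the macrophage markers described here, 5 were lower and 2 higher. Arg1, the arginase that macrophages of the repair type make, stood at 83.1, 50.2 and 91.5 CPM in Fc 1, 2 and 3 and 24.3, 32.5 and 27.4 CPM in ABTAA 1, 2 and 3. Fc 2 was the lowest of its group and still above every ABTAA library (2.67-fold lower, log2 -1.42 ± 0.26 (SE), adjusted p = 0.0215 by edgeR). Arg1 lies on chromosome 10 from 24915221 to 24927484. S100a9, a calcium-binding protein of neutrophils, read 197, 35.0 and 54.7 CPM in Fc and 24.8, 13.3 and 14.7 CPM in ABTAA. Fc 1 held several times the level of any other library, and without Fc 1 the gene did not pass. In that library the neutrophil partner S100a8 also stood at 296 CPM, against 26.6 to 67.1 CPM in the 5 others. It did not pass, with log2 -2.16 ± 0.51 (SE) and an adjusted p of 0.05004 by edgeR. The acute phase gene Saa3, singled out after its values were seen, stood there at 368 CPM against 1.76 to 5.19 CPM elsewhere.

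Serpina3n, an acute phase protease inhibitor, fell from 161 ± 44.5 to 91.1 ± 4.08 CPM (log2 -0.82 ± 0.17 (SE), adjusted p = 0.037 by edgeR), with Fc 3 the highest library. Nfkbib, an inhibitor that retains NF-kappaB in the cytoplasm, fell from 12.8 ± 1.32 to 5.80 ± 1.57 CPM (log2 -1.12 ± 0.25 (SE), adjusted p = 0.0435 by edgeR), 1 of 21 in its pathway and overlapped by Sirt2 on the other strand. The interferon-induced Ifi27 fell by 0.44, 1 of 29 in its list. Higher were the complement component C4b (1.49-fold), which cannot be separated from its near-identical copy C4a, and Plau, the urokinase that activates plasminogen. Plau stood at 15.2, 13.2 and 12.3 CPM in Fc and 24.4, 20.03 and 29.1 CPM in ABTAA (log2 0.85 ± 0.17 (SE), adjusted p = 0.0359 by edgeR). These were 2 of 24 complement and coagulation genes, with 0 lower, beside 1.40% called over all tested genes. In the inflammatory cytokine and adhesion list, 1 of 28 was lower, 0 were higher and 22 of 28 lay below 0, with a median of -0.35. Il1rn, the interleukin 1 receptor antagonist, did not pass and stood at -0.70 ± 0.20 (SE, adjusted p = 0.0783 by edgeR), 388 CPM in Fc 1 being its highest value. Of the 7 genes, 1, 2 and 1 passed without Fc 1, 2 and 3, and 0, 0 and 1 did without ABTAA 1, 2 and 3. Omission of VEGF Trap 1, 2 or 3 left 7, 4 or 6, and removal of the GC trend left 5, all but C4b and Ifi27. Macrophage marker sums were lower in ABTAA, as given above, and their part in these differences was not tested.

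Of 13 called genes of the cytoskeleton and clathrin coats described here, 11 were lower and 2 higher. Tmsb4x, the thymosin that holds actin monomers and the most abundant called gene, stood at 3377, 3130.5 and 3051 CPM in Fc 1, 2 and 3 and 2258, 2012 and 2233 CPM in ABTAA 1, 2 and 3. It fell 1.47-fold with no overlap (log2 -0.56 ± 0.11 (SE), adjusted p = 0.029 by edgeR). Cofilin, Cfl1, which severs filaments (-0.49), Arpc1b of the branching Arp2/3 complex (-0.46), the Z-line protein Pdlim5 (-0.48) and the septin Sept7 (-0.62) fell. Profilin, Pfn1, which feeds monomers to filaments, rose by 0.81. The actin cytoskeleton list held 3 lower and 1 higher of 36, with a median of 0.07, beside 1.40% called over all tested genes. The epithelial keratin Krt18 stood at 386, 468 and 339.5 CPM in Fc and 264, 204 and 260.0 CPM in ABTAA (log2 -0.71 ± 0.14 (SE), adjusted p = 0.0342 by edgeR).

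Clathrin heavy chain, Cltc, read 356, 346 and 363 CPM in Fc and 248, 263 and 287 CPM in ABTAA and its assembly partner Picalm 1447, 1463 and 1297 CPM in Fc and 849, 994 and 1062 CPM in ABTAA. Both lay below all Fc libraries and fell by 0.42 and 0.53 on the log2 scale. Of the microtubule genes, the tubulin Tubb2a (-0.59), the dynein heavy chain Dync1h1 (-0.56) and the cilium transport protein Ift20 (-0.79) fell, while the tubulin Tubb5 rose by 0.54. Ift20 was the 1 called of 37 cilium and centrosome genes, beside 1.40% over all tested genes. Of the 13 genes, 2, 0 and 2 passed without Fc 1, 2 and 3, and 1, 0 and 6 did without ABTAA 1, 2 and 3. Leaving out VEGF Trap 1, 2 or 3 left 13, 5 or 9, and removing the GC trend left 5. Cfl1 and Sept7 have near-identical copies, and Cfl1, Sept7, Arpc1b and Dync1h1 overlap exons on the other strand.

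Of 11 called genes described here for receptors and signalling proteins of vessels outside the endothelial list, 9 were higher and 2 lower. Ednrb, the endothelin B receptor, through which endothelin triggers relaxing signals in endothelium, stood at 129, 135 and 117 CPM in Fc 1, 2 and 3 and 213, 228 and 203 CPM in ABTAA 1, 2 and 3. The highest Fc value was far under the lowest ABTAA value, a 1.69-fold rise (log2 0.76 ± 0.11 (SE), adjusted p = 0.00872 by edgeR). Gja4, the gap junction protein connexin 37 of arterial endothelium, stood at 11.6, 9.51 and 14.4 CPM in Fc and 25.0, 31.4 and 22.1 CPM in ABTAA. ABTAA 2 was the highest library, and the gene rose 2.21-fold (log2 1.15 ± 0.19 (SE), adjusted p = 0.0148 by edgeR). Dock6, an exchange factor that activates Rac1 and Cdc42, was at 11.8, 11.6 and 12.2 CPM in Fc and 24.6, 28.2 and 22.2 CPM in ABTAA, with wide separation (log2 1.08 ± 0.17 (SE), adjusted p = 0.0131 by edgeR). Ednrb lies on chromosome 14 from 103814625 to 103844402, Gja4 on chromosome 4 from 127311421 to 127314039 and Dock6 on chromosome 9 from 21799860 to 21852635.

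Ramp3, the partner with which the calcitonin receptor-like receptor binds adrenomedullin, rose from 31.3 ± 4.78 to 54.1 ± 5.75 CPM (log2 0.79 ± 0.15 (SE), adjusted p = 0.0259 by edgeR). Ace, the angiotensin-converting enzyme of the endothelial surface, rose from 32.0 ± 6.73 to 58.9 ± 5.91 CPM (log2 0.88 ± 0.16 (SE), adjusted p = 0.0204 by edgeR). Piezo1, a stretch-gated channel (0.57), the exchange factor Arhgef25 (0.61), the scaffold Slc9a3r2 (0.63) and the secreted Scube1 (0.77) rose. Adora1, the adenosine A1 receptor, fell from 249.9 ± 42.3 to 139.7 ± 23.1 CPM (log2 -0.84 ± 0.16 (SE), adjusted p = 0.0247 by edgeR). Lpar4, a receptor for lysophosphatidic acid, fell from 18.4 ± 2.77 to 10.2 ± 1.38 CPM (log2 -0.84 ± 0.19 (SE), adjusted p = 0.0428 by edgeR). Of the vessel pathways, with 1.40% of all tested genes called, Notch signalling held 0 of 17 with a median of 0.31, VEGF ligands and receptors 0 of 10 with a median of 0.04, and axon guidance 0 of 32 with a median of 0.14. The Notch genes Rbpj and Lfng stood at 0.13 ± 0.12 and 0.31 ± 0.13 (SE), and Vegfa at -0.07 ± 0.14. Of the 11 genes, 4, 1 and 5 passed without Fc 1, 2 and 3, and 5, 0 and 7 did without ABTAA 1, 2 and 3. Omission of VEGF Trap 1, 2 or 3 left 11, 8 or 10, and removal of the GC trend left 7 (Ace, Adora1, Arhgef25, Dock6, Ednrb, Gja4 and Ramp3). Ramp3, Ace, Adora1 and Piezo1 overlap exons on the other strand. Endothelial, pigment and Schwann cell marker sums were higher in every ABTAA library than in any Fc library, as given above. RNA of the whole lesion does not show which cells carried Ednrb or the other genes, and the part of these sums in the differences was not tested.

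The 7 called genes grouped here for secreted and matrix proteins were each higher. Secreted products counted in other groups went both ways, as Serpina3n fell and Scube1 rose. Igfbp4, which binds insulin-like growth factors outside the cell, stood at 434, 347 and 409 CPM in Fc 1, 2 and 3 and 658, 847 and 751 CPM in ABTAA 1, 2 and 3. It rose 1.90-fold without overlap (log2 0.92 ± 0.13 (SE), adjusted p = 0.00872 by edgeR). Hspg2 encodes perlecan, the heparan sulfate proteoglycan of basement membranes, and stood at 273, 184 and 169.8 CPM in Fc and 397, 397 and 308 CPM in ABTAA. Fc 1 was the nearest to ABTAA and stayed below all 3 of its libraries (log2 0.82 ± 0.16 (SE), adjusted p = 0.0303 by edgeR). Igfbp4 lies on chromosome 11 from 99041244 to 99054392 and Hspg2 on chromosome 4 from 137468769 to 137570630. Serpinf1, the anti-angiogenic pigment epithelium-derived factor, rose from 208 ± 9.30 to 297 ± 11.4 CPM (log2 0.52 ± 0.11 (SE), adjusted p = 0.037 by edgeR). Myoc, the myocilin known from the outflow tissue of the eye, rose from 96.3 ± 8.03 to 156 ± 25.0 CPM (log2 0.69 ± 0.14 (SE), adjusted p = 0.0369 by edgeR). Col6a1, a microfibril collagen, was 1.54-fold, the growth factor Gdf10 1.52-fold and the prostaglandin D synthase Ptgds 1.39-fold higher.

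In the matrix lists, 1 of 25 basement membrane genes was higher (median 0.15), 1 of 16 interstitial collagens (median 0.09) and 1 of 23 genes of the FGF, PDGF and IGF axis (median 0.18), with 0 lower in each. The share called over all tested genes was 1.40%. Col18a1, the source of endostatin, stood at 149, 177 and 183 CPM in Fc and 222, 248 and 229 CPM in ABTAA. Its groups lay apart yet not past the threshold (log2 0.46 ± 0.11 (SE), adjusted p = 0.0513 by edgeR). Elastic fibre, proteoglycan and matricellular genes had 0 of 32 calls although 26 of 32 lay above 0 (median 0.12). Fn1 stood at 0.19 ± 0.13 and Spp1 at 0.12 ± 0.12 (SE). Crosslinking enzymes, metalloproteinases and inhibitors had 0 of 28 (median -0.03). Of the 7 genes, 2, 1 and 1 passed without Fc 1, 2 and 3, and 2, 0 and 4 did without ABTAA 1, 2 and 3. Leaving out VEGF Trap 1, 2 or 3 left 7, 5 or 6, and removing the GC trend left Igfbp4 alone. Exons of Myoc overlap an opposite-strand gene.

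The 5 called contractile genes outside the skeletal and striated lists grouped here were each higher. The Z-line protein Pdlim5, counted with the cytoskeleton, was lower. Myl9, the regulatory light chain of smooth muscle myosin, stood at 61.3, 52.2 and 64.3 CPM in Fc 1, 2 and 3 and 101, 87.5 and 103 CPM in ABTAA 1, 2 and 3. The groups did not overlap (log2 0.71 ± 0.13 (SE), adjusted p = 0.0204 by edgeR). Myl9 was the 1 called of 15 pericyte and smooth muscle genes (median 0.35), beside 1.40% over all tested genes. Smtn, smoothelin of contractile smooth muscle, rose 1.58-fold and Fxyd1, a regulator of the sodium pump, 1.74-fold (log2 0.80 ± 0.12 (SE), adjusted p = 0.00872 by edgeR). Pln, the brake on the calcium pump of the sarcoplasmic reticulum, was low in all libraries at 0.934, 1.53 and 0.764 CPM in Fc and 3.31, 4.17 and 7.20 CPM in ABTAA (log2 2.16 ± 0.43 (SE), adjusted p = 0.032 by edgeR). Hspb7, a small heat shock protein of muscle, was at 3.64, 1.53 and 3.97 CPM in Fc and 6.40, 9.32 and 8.60 CPM in ABTAA (log2 1.41 ± 0.33 (SE), adjusted p = 0.0477 by edgeR). Both fall under the level set for naming and were chosen after their values were seen. Of the 5 genes, 1, 0 and 1 passed without Fc 1, 2 and 3, and 2, 0 and 2 did without ABTAA 1, 2 and 3. Omission of VEGF Trap 1, 2 or 3 left 5, 4 or 4, and removal of the GC trend left 3 (Fxyd1, Myl9 and Pln). Skeletal muscle sums were higher in every ABTAA library than in any Fc library, as given above. With that sum as a covariate 0 of the 5 passed, but so did 0 of all tested genes, so this is not particular to them. Pln and Smtn overlap exons on the other strand.

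Of 11 called genes for transcription factors and their cofactors described here, 10 were higher and 1 was lower. Other called genes with such roles lie outside this count, among them Tfeb, given above, and the zinc finger genes Zfp91, Zfp120 and Zfp950. The split therefore does not describe all called genes of this kind. The T-box factor Tbx2 stood at 7.85, 6.53 and 8.09 CPM in Fc 1, 2 and 3 and 14.98, 16.8 and 15.8 CPM in ABTAA 1, 2 and 3 and rose 2.11-fold (log2 1.08 ± 0.19 (SE), adjusted p = 0.0204 by edgeR). Tbx1, of the same family, stood at 5.61, 3.31 and 6.41 CPM in Fc and 13.3, 13.1 and 14.1 CPM in ABTAA and rose 2.63-fold (log2 1.40 ± 0.25 (SE), adjusted p = 0.0204 by edgeR). In both the ABTAA values lay close together, above all Fc values. Tbx1, known from pharyngeal and heart development, lies on chromosome 16 from 18580979 to 18590671 and Tbx2, which acts in eye and heart development, on chromosome 11 from 85832551 to 85841948. Id1, a target of BMP signals that blocks basic helix-loop-helix factors, rose from 117 ± 15.3 to 181 ± 12.8 CPM (log2 0.63 ± 0.15 (SE), adjusted p = 0.0473 by edgeR), the 1 called of 28 TGF-beta and BMP genes. Jund, an AP-1 subunit (0.50), and Egr3, an early growth response factor (0.86), were 2 higher of 22 immediate early genes, whose median was -0.05. The share called over all tested genes was 1.40%. The retinoic acid receptor Rara read 62.8, 45.1 and 62.6 CPM in Fc and 77.3, 116 and 104 CPM in ABTAA (log2 0.80 ± 0.17 (SE), adjusted p = 0.037 by edgeR), 1 of 19 in the vitamin A and thyroid carrier list.

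Lmo4 (0.53), Irx3 (0.93) and Pou6f1 (0.90) rose too. The paired E-box factors went apart. Usf1 rose from 31.2 ± 2.09 to 49.5 ± 3.64 CPM (log2 0.67 ± 0.15 (SE), adjusted p = 0.0449 by edgeR), and Usf2 fell from 246 ± 34.1 to 160.5 ± 28.6 CPM (log2 -0.62 ± 0.14 (SE), adjusted p = 0.0473 by edgeR). Each has a near-identical copy. Jund, Irx3 and Usf2 overlap exons on the other strand. With the GC trend removed, Usf2 alone of the 11 passed, while all 11 kept their direction and the median size of their differences was 0.68, against 0.80 before. Of the 11 genes, 2, 0 and 1 passed without Fc 1, 2 and 3, and 3, 0 and 7 did without ABTAA 1, 2 and 3, and 11, 6 and 8 without VEGF Trap 1, 2 and 3. Chromatin and histone modifiers had 0 of 33 calls (median 0.01), circadian clock genes 0 of 17 (median 0.22) and Wnt signalling 0 of 29 (median 0.28), with Tcf7l2 at 0.29 ± 0.09 (SE). These counts stand beside 1.40% called over all tested genes.

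Of the genes that process mRNA described here, 5 rose and 1 fell. In the spliceosome list 4 of 47 were higher and 0 lower, with a median of 0.06, beside 1.40% called over all tested genes. Snrpa, a protein of the U1 particle that marks 5′ splice sites, rose from 52.1 ± 6.50 to 81.8 ± 5.05 CPM (log2 0.65 ± 0.13 (SE), adjusted p = 0.0318 by edgeR). The others were Sf3b4, of the U2 particle (0.73), and the ring proteins Lsm2 (0.54) and Lsm7 (0.62). Dhx34, a helicase of nonsense-mediated decay, stood at 15.7, 12.2 and 12.9 CPM in Fc 1, 2 and 3 and 20.4, 29.9 and 26.0 CPM in ABTAA 1, 2 and 3. The groups did not overlap, and it rose from 13.6 ± 1.84 to 25.4 ± 4.72 CPM (log2 0.90 ± 0.18 (SE), adjusted p = 0.032 by edgeR). Thoc2, a scaffold of mRNA export, fell from 94.9 ± 5.76 to 62.5 ± 2.03 CPM (log2 -0.60 ± 0.12 (SE), adjusted p = 0.032 by edgeR). Exosome and RNA decay genes had 0 of 26 calls (median 0.01). Of the 6 genes, 2, 0 and 0 passed without Fc 1, 2 and 3, and 1, 0 and 1 did without ABTAA 1, 2 and 3. Leaving out VEGF Trap 1, 2 or 3 left 6, 4 or 5, and removing the GC trend left 2 (Lsm2 and Snrpa). Snrpa and Sf3b4 overlap exons on the other strand, and Lsm7 has a near-identical copy.

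Called genes of DNA end joining and replication described here number 4, 3 lower and 1 higher. Lig4, the ligase that seals double-strand breaks, was low, at 10.8, 12.9 and 15.2 CPM in Fc 1, 2 and 3 and 3.72, 7.14 and 6.26 CPM in ABTAA 1, 2 and 3. It fell 2.28-fold without overlap (log2 -1.19 ± 0.26 (SE), adjusted p = 0.0392 by edgeR). Dclre1c, the nuclease Artemis that trims such ends, fell from 20.6 ± 1.88 to 12.1 ± 0.849 CPM (log2 -0.77 ± 0.16 (SE), adjusted p = 0.0382 by edgeR). Orc2, of the complex that marks replication origins, fell by 0.62, and Fancl, the ubiquitin ligase of the Fanconi pathway, rose by 0.58 beside Vrk2 (0.57), which it overlaps on the other strand. Of 29 DNA repair genes 1 was lower and 0 higher (median -0.09), and of 32 cell cycle and proliferation genes 0 passed (median 0.03). Over all tested genes the share called was 1.40%. Of the 4 genes, 0 passed without Fc 1, 2 or 3, and 0, 0 and 1 did without ABTAA 1, 2 and 3. Omission of VEGF Trap 1, 2 or 3 left 4, 1 or 4, and removal of the GC trend left Fancl. Dclre1c and Orc2 also have overlapping exons on the other strand.

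**Figure D4:**
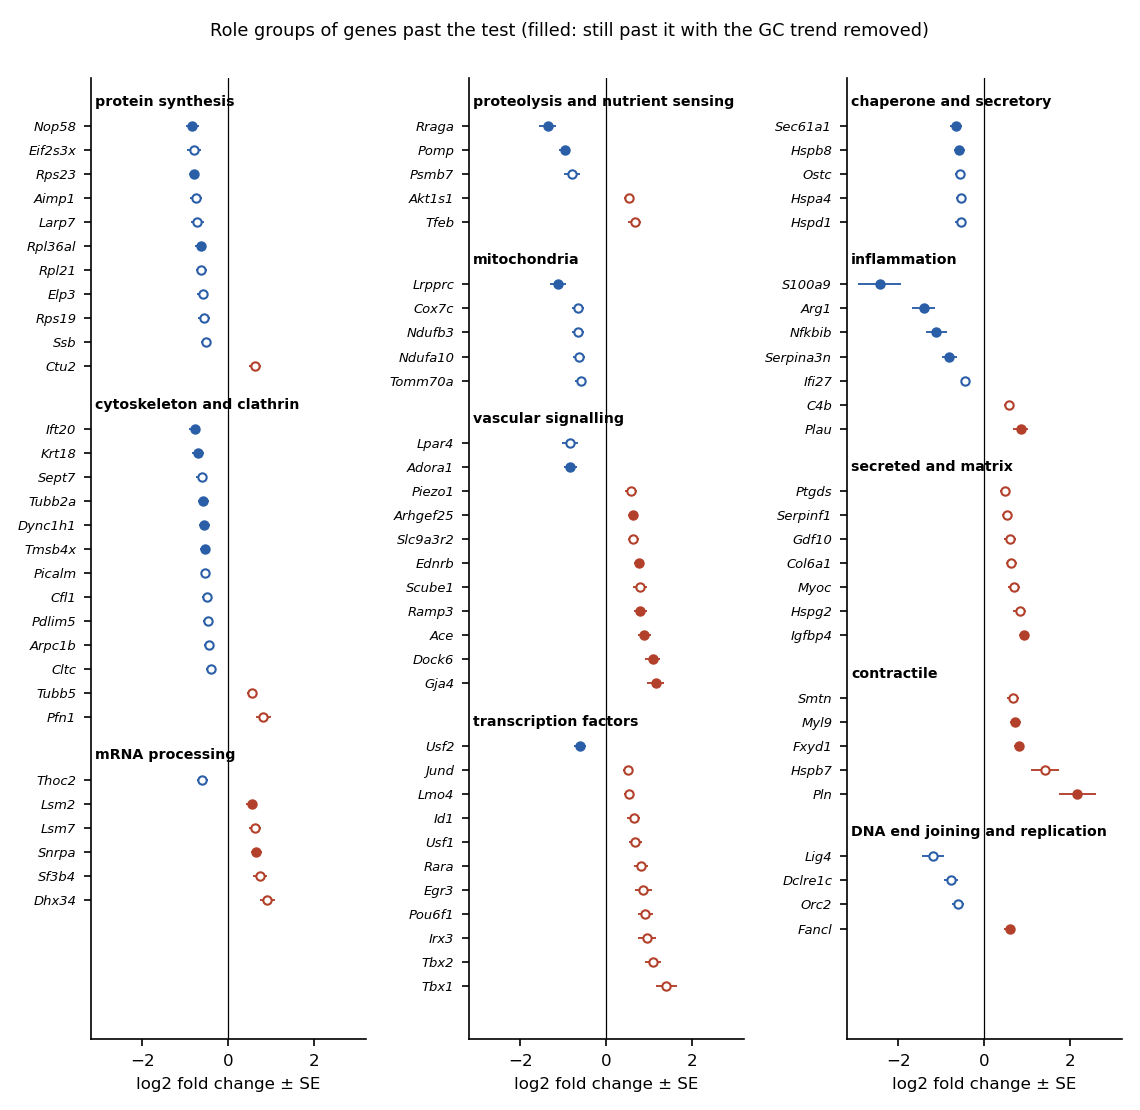
Log2 fold change of ABTAA minus Fc with its standard error (horizontal axis) for the genes of 12 role groups, each named above its genes; red is higher and blue lower in ABTAA, and filled points still passed the edgeR test with the GC trend removed. Inflammation keeps 5 of 7 filled points and vascular signalling 7 of 11, transcription factors 1 of 11.

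Large changes also fell on genes that belong to none of these groups. Pianp, a membrane ligand of an inhibitory myeloid receptor, stood at 16.4, 10.4 and 17.6 CPM in Fc 1, 2 and 3 and 35.6, 35.4 and 39.0 CPM in ABTAA 1, 2 and 3. The ABTAA libraries lay close together and all above Fc, a 2.46-fold rise (log2 1.30 ± 0.19 (SE), adjusted p = 0.00872 by edgeR). Pmel, which builds the fibrils of the melanosome, read 75.6, 96.6 and 94.8 CPM in Fc and 151, 201 and 163 CPM in ABTAA (log2 0.95 ± 0.13 (SE), adjusted p = 0.00872 by edgeR) and overlaps other genes on the opposite strand. Rasl11b, a small GTPase of the Ras family, fell from 96.5 ± 19.5 to 51.0 ± 11.3 CPM (log2 -0.92 ± 0.19 (SE), adjusted p = 0.032 by edgeR). Pid1, an adaptor that dampens insulin signals, fell from 28.0 ± 7.65 to 13.9 ± 3.12 CPM (log2 -1.02 ± 0.22 (SE), adjusted p = 0.0407 by edgeR). St3gal5, the enzyme that makes the ganglioside GM3, fell from 101 ± 17.4 to 56.1 ± 6.25 CPM (log2 -0.86 ± 0.14 (SE), adjusted p = 0.0148 by edgeR), 1 of 19 in the glycosphingolipid list. The junction protein Tjp3 rose 2.23-fold, 1 of 28 epithelial junction genes and overlapped by Apba3. Higher were also the lipid transfer protein Stard10 2.16-fold and the anion exchanger Slc4a3 2.04-fold, 1 of 27 transport genes. The list counts here stand beside 1.40% called over all tested genes. Pianp lies on chromosome 6 from 124996694 to 125003096 and Pmel on chromosome 10 from 128704195 to 128720238. Pianp and Pmel each passed in 8 of the 9 omissions, failing without ABTAA 2, and St3gal5 passed in 6, Rasl11b in 5, Pid1, Tjp3 and Stard10 in 4 and Slc4a3 in 2.

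Arginine and polyamine metabolism held 1 lower of 20, Arg1, with a median of -0.17. Several other metabolic lists held 0 calls, beside 1.40% over all tested genes. Glycolysis and hypoxia genes had 0 of 28 with a median of -0.15, the lactate dehydrogenase Ldha standing at -0.42 ± 0.14 (SE). Cholesterol and lipid synthesis had 0 of 25 with a median of 0.20, where Hmgcs1, an early enzyme of the pathway, stood at -0.25 ± 0.11 (SE). Iron, heme and metallothionein genes had 0 of 20 (median -0.18), oxidative stress genes 0 of 24 (median -0.07) and ubiquitin conjugation genes 0 of 31 (median 0.01). Over all 70 lists, 39 held at least 1 called gene, 65 of the 197 genes were in some list and 132 in none.

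**Figure D5:**
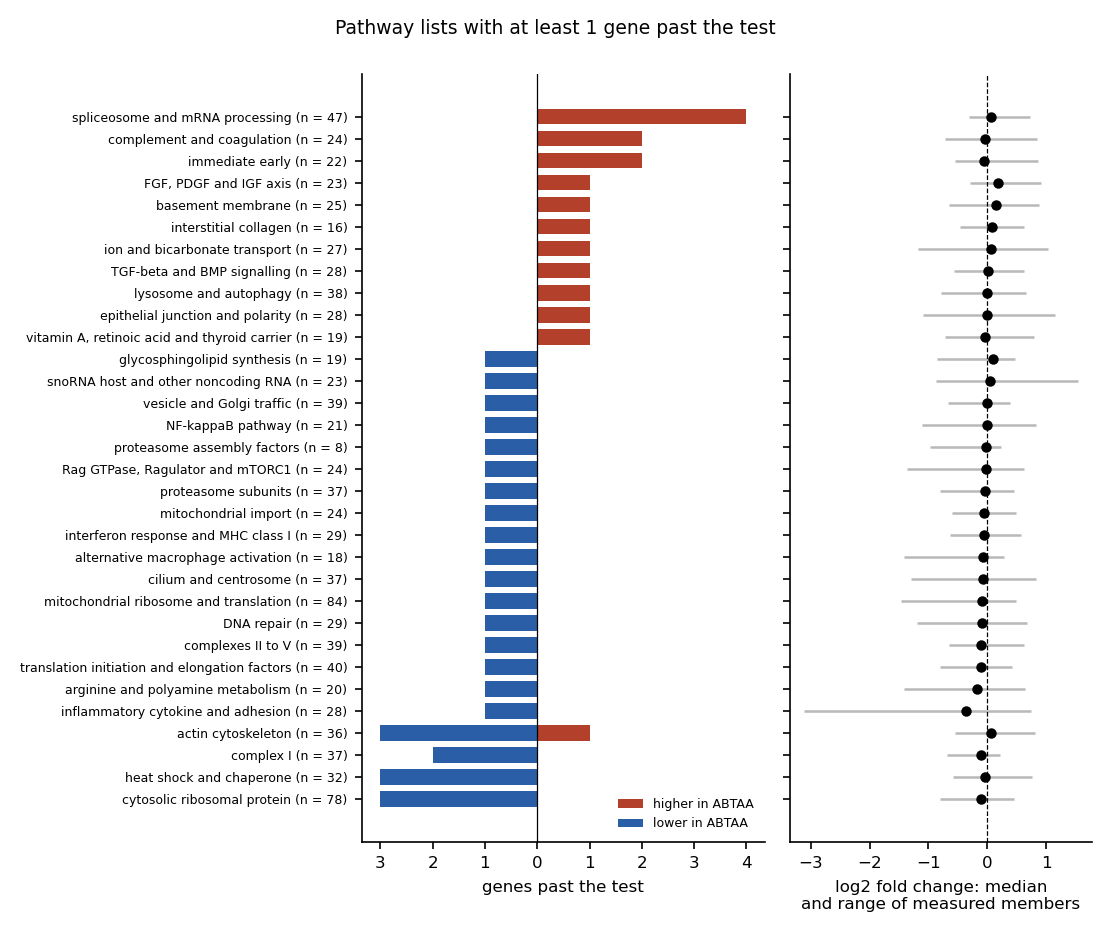
Left, genes past the edgeR test in each pathway list with at least 1 call, higher in ABTAA to the right and lower to the left, with the number measured. Right, the median (point) and range (line) of log2 fold changes over all measured members. Spliceosome genes reach 4 higher, ribosomal protein and chaperone genes 3 lower, and nearly all medians lie close to 0.

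ABTAA was also set against VEGF Trap. Between ABTAA and VEGF Trap, 0 of 14054 genes passed in edgeR, with 711 at an unadjusted p under 0.05; DESeq2 called 1 and limma-voom 0. Among the 197 genes, 40 had an unadjusted p under 0.05 by edgeR in that comparison. The median size of their difference was 0.14 on the log2 scale, and the lowest adjusted p was 0.852. The 197 were chosen on the values of these same ABTAA libraries. Their 40 therefore cannot be weighed against the 711 over all tested genes. Rraga was at 33.9 ± 1.30 CPM in VEGF Trap libraries (mean and SD of 3), a log2 difference of 0.26 ± 0.20 (SE, adjusted p = 0.964 by edgeR). Pomp was at 156 ± 11.5 CPM, a difference of -0.05 ± 0.13 (SE, adjusted p = 0.987 by edgeR). Ednrb was at 186 ± 19.9 CPM, a difference of 0.21 ± 0.11 (SE, adjusted p = 0.962 by edgeR). In CPM, the VEGF Trap means of these 3 genes lay nearer to the ABTAA than to the Fc means, and those of the next 3 nearer to the Fc means. On the log2 scale only Arg1 of the latter lay nearer to Fc, while Gja4 and Tbx1 lay nearer to ABTAA. Gja4 stood at 17.9 ± 1.86 CPM, a difference of 0.55 ± 0.19 (SE, adjusted p = 0.932 by edgeR). Tbx1 stood at 8.74 ± 1.29 CPM, a difference of 0.62 ± 0.24 (SE, adjusted p = 0.949 by edgeR). Arg1 stood at 55.7 ± 20.2 CPM, a difference of -0.98 ± 0.26 (SE, adjusted p = 0.852 by edgeR). Both comparisons with Fc share the 3 Fc libraries, so a likeness of the treated groups against Fc is not counted as a result.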

How the data were processed

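RNA of laser-captured choroidal lesions was measured in 9 libraries, 3 per treatment; 500 ng of RNA entered each 3′-end library, per the labels' protocols. The deposited tables hold whole-number read counts per gene symbol, per the file headers. Bowtie2, edgeR and mm10 are named in the submitters' processing notes; their versions, the annotation and the strand setting were not stated in the sources used here. Even counts in all libraries were found for 1616 of the 14167 genes counted in each of them, so the counts were also divided by their common divisor.

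Genes were kept with edgeR's filterByExpr, scaled by TMM and tested by edgeR 4.0.16 (R 4.3.3) with the quasi-likelihood F test over all 9 libraries and 3 groups, with 6 residual degrees of freedom; p-values were adjusted by Benjamini-Hochberg over 14054 genes. A gene's SE is its log2 fold change divided by the root of F. The biological coefficient of variation was 17.9%. CPM are TMM-scaled. DESeq2 1.42.0, limma-voom (limma 3.58.1), other scalings and filters, the compared groups alone, a replicate block and 9 omissions of a library were alternatives; a GC trend, the common divisor and a muscle covariate were added after seeing the data. On simulated counts, edgeR recovered 11 of 50 genes changed 1.5-fold, 33 of 47 at 2-fold and 49 of 50 at 3-fold, with 8 false calls. The simulation gave every gene the same coefficient of variation, with no outlying library and no GC trend. These rates need not hold for the real counts.

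Genes named by rule were those past the threshold with an established symbol: the 15 largest increases and 15 largest decreases with a mean of at least 10 CPM in the higher group and no overlap, every called member of a list, and other called genes of at least 10 CPM. Up to 4 of the most abundant members of a list that did not pass were given with values. The role groups were formed after values were seen, and some items are not reported here. Members and lists were chosen with earlier results of these data known. Of the 24421 symbols, 23334 matched the GENCODE M21 annotation of GRCm38 directly, 667 through older symbols, and 420 had no match. Near-identical copies share at least 100 of the last 200 bases at 95% identity; of the 197 genes 20 have one, and 65 share exon positions with a gene on the other strand.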

Additional observations from a re-analysis of the deposited data

How the results depend on the processing

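The direction of all 197 differences held under each alternative that tested them except the muscle covariate, where the muscle genes Mylpf and Tnnt3 turned to -0.0699 and -0.20. For the omissions of a library this was nearly fixed beforehand, since the groups of each called gene did not overlap. The counts did not hold. DESeq2 called 750 genes (427 higher, 323 lower), limma-voom 411 (230 and 181), no filter 684 genes (352 and 332) and the compared groups alone 301 (174 and 127). Library totals alone gave 66 higher and 106 lower, and counts divided by their common divisor 156 and 128. With the GC trend removed 78 passed (42 and 36), and with the muscle covariate 0 (0 higher, 0 lower). Leaving out 1 library gave 0 to 373 calls, 0 to 211 higher and 0 to 162 lower. The cause of these shifts was not tested. Equal replicate numbers in the 2 groups were not shown to pair libraries. Deviations of log2 levels from the group mean correlated at 0.0173 to 0.107 between same-numbered libraries and at -0.0996 to 0.0412 between the others. In these deviations 5 of 6 libraries correlated best with their own number, a hint from the data only. A replicate block gave 334 calls (193 and 141). For ABTAA minus VEGF Trap DESeq2 called 1 gene against 0. At a median SE of 0.20 over tested genes and 6335805 counts in the shallowest library, changes near 1.5-fold were often below detection in simulated data. Every simulated gene had the same coefficient of variation, so detection in the real counts can differ.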
